A study of Mus musculus with 8 samples.

Results

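The lysosomal and endosomal cathepsins were followed in CD11b+Gr-1+ myeloid cells of mouse bone marrow and colon tumors, through every probe set annotated to a single gene that was 1 of 10 named cathepsins. These were Ctsa, Ctsb, Ctsc, Ctsd, Ctse, Ctsh, Ctsk, Ctsl, Ctss and Ctsz, read by 22 of the 34958 probe sets with 1 gene symbol. CD11b and Gr-1 are surface proteins of granulocytes and monocytes, and RNA was hybridised to 8 single-colour Affymetrix arrays. The study compared mice with and without Hdc, the gene of histidine decarboxylase, which makes histamine. All mice were C57BL/6J and, per the sample labels, carried the HDC-EGFP transgene, in which EGFP reports Hdc expression. The wild-type groups have the genotype HDC-EGFP and the other groups HDC-EGFP/HDC-KO, although the series' design text calls the tumor mice simply WT and HDC-KO. Marrow cells were flushed from the femur and tibia of 3 mice per genotype aged 3 to 4 months, and are described as HDC-expressing. For the tumor groups 10 to 12 tumors from 5 mice were pooled per genotype, at an age of 7 months. Those mice had received azoxymethane, a carcinogen, once, then 10 days of dextran sodium sulfate, which causes colitis, with collection 22 to 24 weeks later. Each of the 4 groups was hybridised to 2 arrays that the labels call technical replicates, so a group is treated as 1 pool here. The labels state pooling for the tumor groups and leave it open for the 3 mice of each marrow group. Every p-value below therefore sets a difference against the spread between technical arrays and carries nothing about the spread between mice. Tumor and marrow pools also differ in the age of the mice, in the carcinogen treatment and in the EGFP description of the sort, and these cannot be told apart from the tissue.

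Cathepsins are proteases that work in the acid compartments of the cell. Most of them are made as inactive precursors, carried to endosomes and lysosomes by mannose 6-phosphate receptors, and activated there by cleavage. They differ in the residue at their active site: Ctsb, Ctsc, Ctsh, Ctsk, Ctsl, Ctss and Ctsz are cysteine proteases, Ctsd and Ctse are aspartic proteases, and Ctsa is a serine carboxypeptidase. In myeloid cells they break down engulfed protein, trim antigens and the invariant chain for MHC class II molecules, and, in the case of Ctsc, activate the serine proteases of granules. Cystatins and stefins are inhibitors of the cysteine cathepsins. Macrophages and intestinal epithelial cells express cathepsins too.

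Hdc itself fell by 3.35 ± 0.05 (SE) on the log2 scale between the marrow pools, yet differed by -0.21 ± 0.05 between the tumor pools, under the 2-fold threshold. The label of that tumor pool is thus not borne out by Hdc, and it is written below as the pool labelled HDC-KO. Of 14 granulocyte markers, among them Itgam, which encodes CD11b, the 12 analysed here each reached background on at least 2 arrays, with a summed level (log2 of the added linear values) of 17.81 to 17.83 on the marrow arrays and 17.42 to 17.74 on the tumor arrays. Fibroblast and endothelial markers lay under log2 5, taken here as background, on all 8 arrays for all 8 genes. Monocyte and macrophage markers summed to 14.92 to 14.97 on the marrow arrays, 15.90 to 15.96 in wild-type tumor and 16.33 to 16.38 in the pool labelled HDC-KO. Colon epithelium markers summed to 7.87 to 8.11 on the marrow arrays, 12.87 to 12.89 in wild-type tumor and 15.20 to 15.27 in the pool labelled HDC-KO. MHC class II and dendritic cell markers summed to 6.96 to 7.55, 12.00 to 12.03 and 14.05 to 14.07 in the same order, with Zbtb46 and Xcr1 at background on all arrays. No macrophage or epithelial marker on the table was at background on all arrays. These summed levels follow the brightest genes of each list and can understate differences of the others.

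The first question was how cathepsin RNA differs between tumor and marrow cells of the same genotype. Of the 9 members that could be tested, 6 were higher in wild-type tumor than in wild-type marrow, led by Ctsl and Ctsc, and 0 were lower. The 6 include Ctse on its leading probe set, whose other probe set was called lower, and without Ctse the count is 5. In the HDC-KO comparison, whose tumor side is the pool labelled HDC-KO, 6 of 9 were also higher and 0 lower, with Ctsz called and Ctse not. At an unadjusted p under 0.05 and any size, limma put 0 and 1 of the 9 lower in these comparisons. Over all 8174 genes tested, 16.4% were called in the wild-type comparison, 11.6% higher and 4.81% lower, and 36.5% in the HDC-KO comparison, 21.1% higher and 15.4% lower. A gene was called in limma at a Benjamini-Hochberg adjusted p under 0.05 with at least a 2-fold difference, on the brightest probe set of each gene, by its mean. At any size, 7 and 8 of the 9 members had an adjusted p under 0.05, against 56.5% and 80.7% of all genes. The median log2 difference of the 9 tested members was 1.92 in wild-type and 2.05 in HDC-KO, against -0.03 and -0.02 over all genes tested. The leading probe sets of all 9 were above background on every array, so none entered the test through the tumor pools alone. The monocyte, MHC class II and epithelial marker levels given above moved the same way as these rises. So did B and plasma cell markers, from 11.21 to 11.22 in wild-type marrow and 10.06 to 10.11 in HDC-KO marrow to 14.17 to 14.19 and 14.66 to 14.71 in the tumor pools, and erythroid markers, from 7.01 to 7.11 and 5.86 to 5.87 to 8.65 to 8.80 and 10.62 to 10.66. Cd79a, Pax5 and Vpreb1 of the B cell list and Hba-a1, Klf1 and Epor of the erythroid list were at background on all arrays. Mast cell, basophil and eosinophil markers moved the other way. They summed to 10.59 to 10.74 and 9.42 to 9.46 in the marrow pools, and to 7.41 to 7.62 and 8.13 to 8.14 in the tumor pools, wild-type first. T and NK cell markers were higher in tumor in wild-type, at 12.10 to 12.17 against 9.59 to 10.05. In HDC-KO they were lower, at 11.73 to 11.76 against 12.56 to 12.58. By gene, 11 of 12 monocyte and macrophage markers were called higher in both comparisons. Their medians were 4.84 in wild-type and 5.63 in HDC-KO, in part from values under background. The part of the marker lists in the rises was not tested. In bulk RNA, fewer cells of a type and less RNA per cell cannot be told apart.

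**Figure D1:**
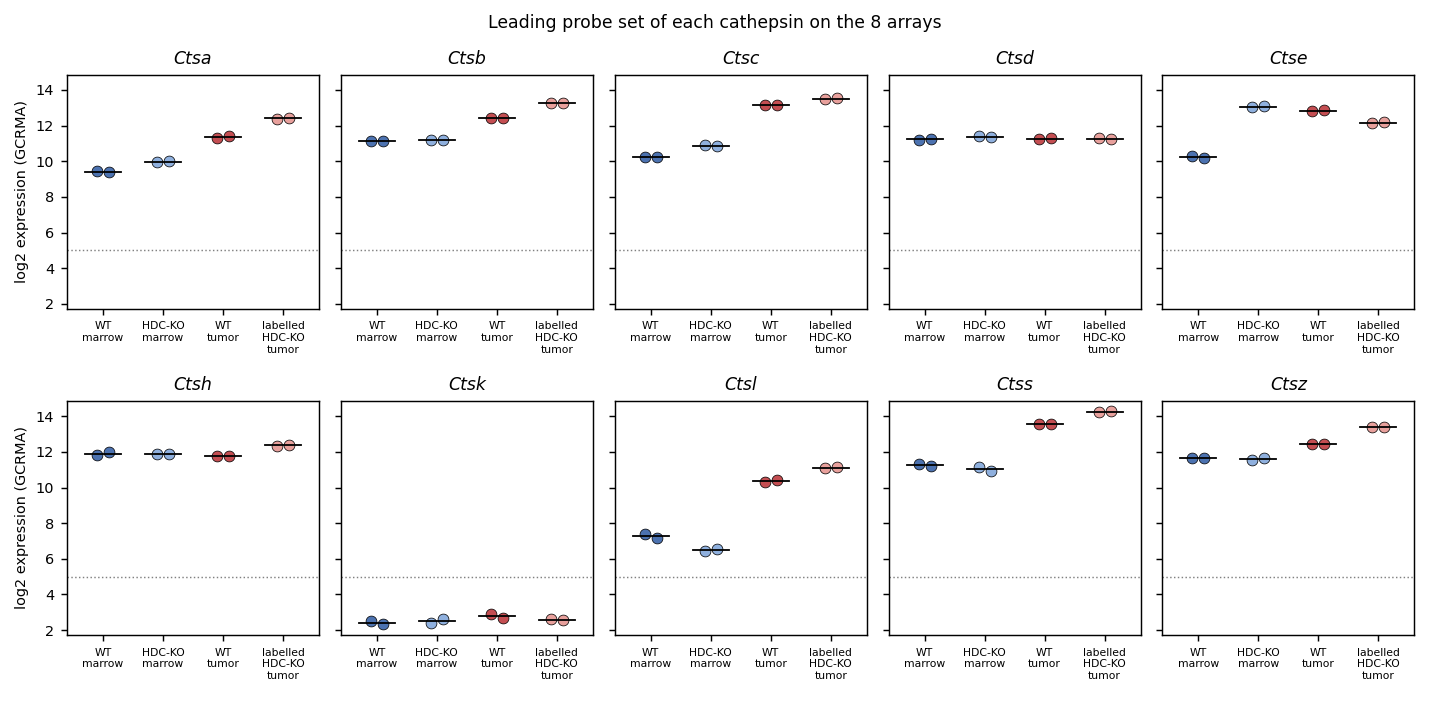
Log2 GCRMA expression (vertical axis) of the leading probe set of each of the 10 cathepsins in the 4 pools (horizontal axis); points are the 2 technical arrays, black bars their mean, and the dotted line is log2 5. Ctsa, Ctsb, Ctsc, Ctsl, Ctss and Ctsz are higher on all 4 tumor arrays than on all 4 marrow arrays, Ctsd and Ctsh are nearly level, Ctse is low in wild-type marrow alone, and Ctsk is under the dotted line throughout.

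Ctsl, an endopeptidase of lysosomes, had the widest range of any member. It read 7.41 and 7.20 in wild-type marrow, 6.45 and 6.53 in HDC-KO marrow, 10.33 and 10.41 in wild-type tumor, and 11.07 and 11.17 in the pool labelled HDC-KO (log2 values of the 2 arrays). The 4 pools did not overlap, and both tumor pools were far above both marrow pools. Tumor exceeded marrow by 3.07 ± 0.09 (SE) on the log2 scale in wild-type, which was 8.38-fold (limma, adjusted p = 1.33e-06), and by 4.63 ± 0.09 in HDC-KO, which was 24.7-fold (limma, adjusted p = 1.04e-07). Its other probe set, 1457724_at, stayed under background on every array, at 1.92 to 2.78.

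Ctss, which in antigen-presenting cells cuts the invariant chain, read 11.31 and 11.18 in wild-type marrow, 11.16 and 10.93 in HDC-KO marrow, 13.56 and 13.57 in wild-type tumor, and 14.21 and 14.26 in the pool labelled HDC-KO. The marrow pools lay close together, and the tumor pools stood apart from them and from each other. Tumor was 4.99-fold higher than marrow in wild-type and 9.15-fold higher in HDC-KO. Ctsc, dipeptidyl peptidase I, read 10.24 and 10.24, then 10.90 and 10.83 in the marrow pools, and 13.14 and 13.17, then 13.49 and 13.52 in the tumor pools, wild-type first in each. Here too no pool overlapped another. Tumor was 7.56-fold higher in wild-type and 6.23-fold higher in HDC-KO.

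The promoter of Ctss is shown for a motif bound by interferon regulatory factors, a GAAA followed, after any pair of bases, by another GAAA. Among the 7 members with a promoter entry, only Ctss held it. Whether it has a part in the Ctss values was not tested. Capitals mark that motif in the 250 bases before the annotated start, 5′ to 3′, from RefSeq on GRCm38.p6 (chr3:95526536-95526785, plus strand).
Ctss: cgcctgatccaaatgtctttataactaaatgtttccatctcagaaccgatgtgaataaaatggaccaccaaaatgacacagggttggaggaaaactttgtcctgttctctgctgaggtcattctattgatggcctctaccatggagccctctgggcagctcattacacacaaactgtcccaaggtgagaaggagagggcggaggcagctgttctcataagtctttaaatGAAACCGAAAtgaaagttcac
Of 32851 promoter windows of that length, 2.98% hold this motif on either strand. A match is a description of the letters and does not show binding.

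Ctsb, which acts both inside chains and at their ends, read 11.13 and 11.13 in wild-type marrow, 11.21 and 11.19 in HDC-KO marrow, 12.41 and 12.44 in wild-type tumor, and 13.25 and 13.26 in the pool labelled HDC-KO. The marrow pools were nearly level and the tumor pools were clearly ordered above them. Tumor exceeded marrow 2.44-fold in wild-type and 4.15-fold in HDC-KO. Ctsz, a carboxypeptidase, read 11.66 and 11.63, then 11.57 and 11.65 in the marrow pools, and 12.44 and 12.44, then 13.40 and 13.40 in the tumor pools. Its marrow pools overlapped and its tumor pools did not. The log2 difference between tumor and marrow was 0.79 ± 0.05 in wild-type, under the threshold, and 1.79 ± 0.05 in HDC-KO, which was a called 3.46-fold rise.

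Ctsa, the carboxypeptidase that protects the neuraminidase Neu1 and the galactosidase Glb1 in lysosomes, stepped up through the 4 pools. It read 9.45 and 9.39 in wild-type marrow, 9.94 and 9.99 in HDC-KO marrow, 11.30 and 11.39 in wild-type tumor, and 12.38 and 12.42 in the pool labelled HDC-KO. Tumor was 3.79-fold higher than marrow in wild-type and 5.44-fold in HDC-KO (limma, adjusted p = 1.79e-06 and 2.17e-07). The other Ctsa probe set, 1458466_at, was at background throughout.

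Ctsd, the main aspartic protease of lysosomes, was the member that moved least among those above background. It read 11.22 and 11.26 in wild-type marrow, 11.39 and 11.37 in HDC-KO marrow, 11.25 and 11.30 in wild-type tumor, and 11.29 and 11.23 in the pool labelled HDC-KO. All 8 values lay within a span of log2 0.18. The log2 difference between tumor and marrow was 0.04 in wild-type (95% interval -0.09 to 0.16) and -0.12 in HDC-KO (-0.25 to 0.00), so that a 2-fold difference lay outside both intervals. Ctsh, an aminopeptidase, read 11.85 and 11.97, then 11.88 and 11.87 in the marrow pools, and 11.74 and 11.79, then 12.31 and 12.41 in the tumor pools. The wild-type tumor arrays lay just under all marrow arrays and those of the pool labelled HDC-KO above them, and the log2 differences between tumor and marrow were -0.14 ± 0.06 and 0.49 ± 0.06, both under the threshold. Its other probe set, 1443814_x_at, spanned 10.75 to 11.20 and was not called in any comparison.

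The sequences around CACGTG, the E-box core bound by TFEB and related regulators of lysosomal genes, are shown because the members that carry it include both risers and a level gene. Among the 8 promoter windows of the 7 members that RefSeq's table holds, CACGTG on either strand was in 3, those of Ctsa, Ctsd and Ctsl, against 6.02% of all windows. Ctsa and Ctsl rose in tumor cells while Ctsd, with 2 matches, did not pass the test. Capitals mark CACGTG, 5′ to 3′ on the gene's strand, with up to 10 bases on either side, on GRCm38.p6. The Ctsa match starts 12 bases before an annotated start on chromosome 2 and the Ctsl match 236 bases before one on chromosome 13. Both of these windows lie inside the annotated span of their gene, not before it. The other Ctsa window, which lies before the gene, held no match, and Ctsl had no other window. Both matches of Ctsd, on chromosome 7, lie 245 and 98 bases before its start.
Ctsa: agcaaactgtCACGTGatgcag
Ctsl: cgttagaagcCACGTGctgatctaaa
Ctsd, distal: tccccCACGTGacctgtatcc
Ctsd, proximal: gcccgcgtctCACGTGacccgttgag
GAGGAAG, a form of the site read by the myeloid factor PU.1, was in 2 of the 8 windows, those of Ctsc and Ctsk, against 10.6% of all windows. Ctsc rose in tumor cells, while Ctsk was under background. The windows of Ctss and Ctsz held neither of these motifs.

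Ctsk, the collagen-degrading cathepsin of osteoclasts, was not tested because its single probe set was under background on every array. It read 2.53 and 2.32, then 2.43 and 2.63 in the marrow pools, and 2.90 and 2.67, then 2.64 and 2.54 in the tumor pools. In RefSeq's GRCm38.p6 annotation Ctsk and Ctss lie near each other on chromosome 3, with 1 annotated locus between them, Gm40096. Of 8 osteoclast markers 5 were at background on all arrays, including Calcr, Dcstamp and Ocstamp, and 3 were tested. Of these, Acp5 was at least 14.3-fold higher in wild-type tumor than marrow and at least 30.7-fold higher in HDC-KO. Itgb3 was at least 11.7-fold and at least 9.96-fold lower, from marrow means of 8.55 and 8.32. Acp5 was under background in both marrow pools and Itgb3 in both tumor pools.

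Ctse, an aspartic protease of endosomes, had 2 probe sets that ran in opposite directions between wild-type marrow and wild-type tumor and between the marrow pools, and in the same direction in the comparisons of the pool labelled HDC-KO with wild-type tumor and with HDC-KO marrow. On 1418989_at it read 10.30 and 10.17 in wild-type marrow, 13.03 and 13.10 in HDC-KO marrow, 12.80 and 12.86 in wild-type tumor, and 12.12 and 12.19 in the pool labelled HDC-KO. Wild-type marrow was the lowest pool there and HDC-KO marrow the highest. On 1427797_s_at it read 6.36 and 6.59, then 5.75 and 5.62 in the marrow pools, and 5.24 and 5.39, then 3.98 and 4.12 in the tumor pools. Wild-type marrow was the highest pool there and the pool labelled HDC-KO the lowest. The leading probe set was 6.03-fold higher in wild-type tumor than in wild-type marrow, while the other was 2.23-fold lower, and both passed the test when every probe set was kept. The mean of both gave 0.72 on the log2 scale and no call. The direction of Ctse between these pools is therefore given per probe set, not for the gene. In HDC-KO, tumor minus marrow was -0.91 ± 0.07 on the log2 scale on the leading probe set, under the threshold. After centring each array on its median, which shifts that comparison by 0.13, it was -1.03 and was called lower. On 1427797_s_at tumor was called lower too, at least 1.60-fold, and the mean of both probe sets, which takes in values under background, was -1.27 and called.

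**Figure D2:**
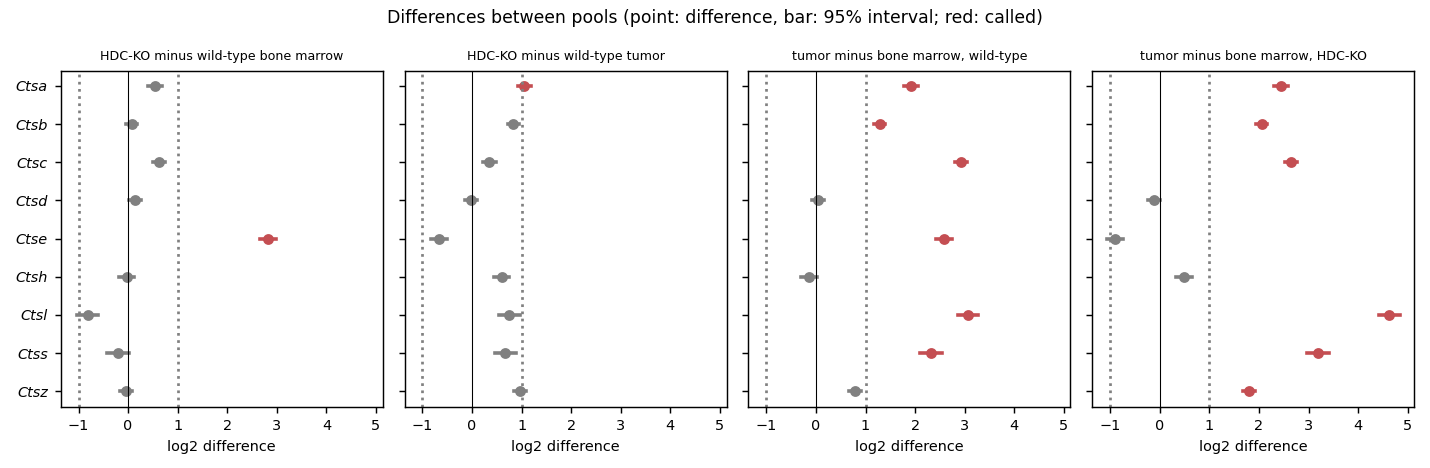
Log2 difference (horizontal axis) of the 9 tested cathepsins (vertical axis) in 4 comparisons; points are limma's differences, bars their 95% intervals from 2 technical arrays a pool, dotted lines the 2-fold threshold, and red marks a call. In both tumor against marrow panels 6 of 9 members are red, while each genotype panel has 1, Ctse in marrow and Ctsa in tumor.

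The next comparison set the HDC-KO against the wild-type marrow pool. Of the 9 tested members 1 was higher in the HDC-KO marrow pool, Ctse, and 0 were lower (1 at an unadjusted p under 0.05 in limma), against 3.82% of all genes called, 1.80% higher and 2.02% lower. Ctse on its leading probe set was higher by 2.83 ± 0.07 on the log2 scale, which was 7.10-fold (limma, adjusted p = 3.9e-06), and on 1427797_s_at it was 1.73-fold lower, under the threshold. The remaining 8 lay within 2-fold. Ctsl was 1.76-fold lower in the HDC-KO pool, by -0.81 ± 0.09 on the log2 scale, and Ctsc and Ctsa were 1.55-fold and 1.45-fold higher. For these 3 the arrays of the pools did not overlap and the adjusted p was under 0.05, as it was for 4 of 9 members and 21.2% of all genes whatever the size. Ctsb, Ctsz, Ctsh, Ctss and Ctsd had log2 differences of -0.20 to 0.14, and the 95% intervals of all 5 lay within -0.42 to 0.27. Mast cell, basophil and eosinophil markers differed between the same marrow pools. They summed to 10.59 to 10.74 in wild-type and 9.42 to 9.46 in HDC-KO. T and NK cell markers summed to 9.59 to 10.05 and 12.56 to 12.58, but their median log2 difference was 0.32. Cd3d was 28.8-fold higher in the HDC-KO pool and Nkg7 2.08-fold lower, while Cd3e and Cd8a were at background on all arrays. B and plasma cell markers were at 11.21 to 11.22 and 10.06 to 10.11, and erythroid markers at 7.01 to 7.11 and 5.86 to 5.87. Jchain was 14.1-fold and Ighm 2.11-fold lower in the HDC-KO pool, while Cd79b was 2.57-fold higher. The part of these 4 lists in the Ctse difference was not tested.

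Between the tumor pools the leading probe sets of 7 of 9 cathepsins were higher in the pool labelled HDC-KO, 6 of them by less than 2-fold, while further probe sets of Ctsb and Ctsz passed that threshold. Of 9 members 1 was called higher, Ctsa, and 0 lower (1 at an unadjusted p under 0.05 in limma), against 26.0% of all genes called, 15.5% higher and 10.5% lower. Ctsa was higher by 1.06 ± 0.06 on the log2 scale, which was 2.08-fold (limma, adjusted p = 1.34e-05), and after median centring it was 1.00 to 2 decimals but under the threshold, so that no member was called. Ctsz was 1.95-fold higher, Ctsb 1.79-fold, Ctsl 1.68-fold, Ctss 1.59-fold, Ctsh 1.51-fold and Ctsc 1.28-fold, each with no overlap between the arrays of the pools. Ctse was 1.59-fold lower on its leading probe set, and Ctsd differed by -0.02 on the log2 scale (95% interval -0.14 to 0.11). At any size, 8 of 9 members had an adjusted p under 0.05, a share to be read against 72.8% of all genes. The median member difference was 0.67, and that of all genes was 0.03. Macrophage, MHC class II and epithelial markers were also higher in the pool labelled HDC-KO, at the summed levels given above. So were B and plasma cell markers, with Cd79b 14.2-fold higher, and erythroid markers, with Slc4a1 5.07-fold higher. Granulocyte markers summed to 17.70 to 17.74 in wild-type tumor and 17.42 to 17.44 in that pool, with Mpo 33.7-fold lower. Of the T and NK cell markers, Gzma was 11.3-fold higher and Cd3d 3.38-fold lower. The part of these lists in the cathepsin differences was not tested.

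The genotype effects in tumor and marrow were then set against each other in 1 model. The difference of effects, tumor minus marrow, was called for 2 of 9 members, 1 in each direction, against 28.5% of all genes, 16.8% higher and 11.7% lower. At any size, 8 of 9 had an adjusted p under 0.05, against 65.8% of all genes. For Ctsl it was 1.56 ± 0.12 on the log2 scale (limma, adjusted p = 9.38e-05), as the HDC-KO pool was lower in marrow and the pool labelled HDC-KO higher in tumor, and averaging in its background-level probe set gave 0.75 and no call. With the mean of probe sets Ctsb was called at 1.36 and Ctsz at 1.03. For Ctse it was -3.50 ± 0.09 (limma, adjusted p = 2.74e-06), as the HDC-KO pool was higher in marrow and the pool labelled HDC-KO lower in tumor on the leading probe set. On 1427797_s_at both were lower, 1.73-fold in marrow and at least 1.25-fold in tumor. Ctsz lay just inside the threshold at 0.9993 ± 0.07. It was called at 1.00 to 1.04 when HDC-KO marrow array 2, wild-type marrow array 2 or wild-type tumor array 2 was left out.

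Where a gene had several probe sets, they were compared directly, in a fit with a row for each probe set. It kept the 13505 that reached background on at least 2 arrays. Of the 19 member probe sets tested, 13 were higher and 1 lower in wild-type tumor against marrow, 14 higher and 1 lower in HDC-KO, and 5 higher and 1 lower between the tumor pools, the lower one being 1427797_s_at of Ctse each time. Over all probe sets 15.9%, 36.3% and 24.4% were called in these comparisons, higher and lower together. Among member probe sets called higher in tumor, 1444987_at of Ctsb and 1446834_at of Ctsc were under background on every marrow array. These entered the test through the tumor pools alone. 1417491_at of Ctsb and 1437939_s_at of Ctsc reached background on only 1 marrow array each. In wild-type, 1446834_at was called although both pool means were under background, at 4.81 in tumor and 3.00 in marrow. The 5 probe sets of Ctsb agreed in direction between tissues but not in size. In HDC-KO, tumor exceeded marrow 4.15-fold on the leading 1417490_at, 5.79-fold on 1448732_at and 21.6-fold on 1417492_at, and at least 12.9-fold on 1417491_at and at least 2.72-fold on 1444987_at, whose marrow means were under background. Between the tumor pools Ctsb was 1.79-fold higher on its leading probe set and not called, while 1417491_at, 1417492_at and 1448732_at were called at 5.01-fold, 4.46-fold and 2.04-fold. In the difference of effects 4 member probe sets were called higher and 1 lower, against 27.6% of all, among them 1417491_at and 1417492_at of Ctsb, the latter at 2.19, and 1417870_x_at of Ctsz at 1.21. The call for Ctsb between the tumor pools thus depended on the probe set.

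Ctsz was similar in kind, with 1417870_x_at called 2.34-fold higher between the tumor pools and 1417869_s_at not called at 1.81-fold. Between wild-type tumor and marrow, 1417869_s_at was called 2.24-fold higher and 1417870_x_at not called at 1.97-fold. For Ctsc, 1437939_s_at was under background in wild-type marrow at 4.48 and 3.98 and read 9.46 and 9.42 in wild-type tumor, at least 21.8-fold higher. The third Ctsc probe set, 1446834_at, reached 4.55 to 5.27 in the tumor pools and 2.52 to 3.05 in the marrow pools.

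**Figure D3:**
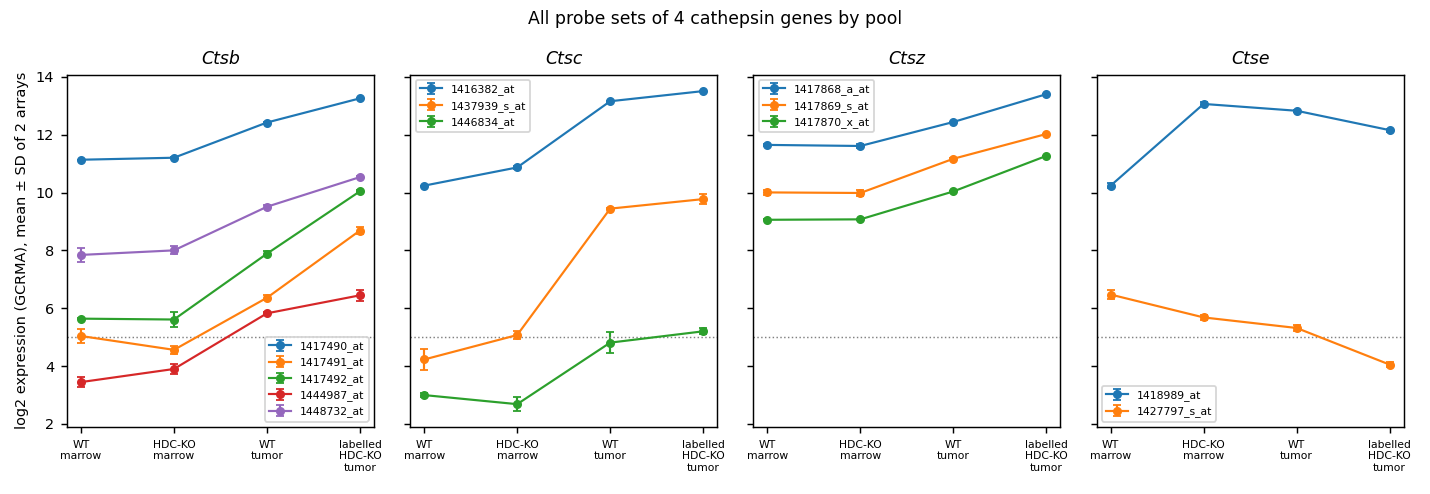
Mean log2 GCRMA expression with SD of 2 technical arrays (vertical axis) for every probe set of Ctsb, Ctsc, Ctsz and Ctse in the 4 pools (horizontal axis); lines join the pools of 1 probe set and the dotted line is log2 5. Probe sets of Ctsb, Ctsc and Ctsz climb from marrow to tumor by different amounts, and those of Ctse run in opposite directions between wild-type marrow and the other pools.

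Likeness of profile was measured as the root mean square distance between mean-centred values over the 8 arrays, for the 6 members whose pool means spanned at least log2 2. Nearest to Ctsb were Selenop, a selenium carrier, and Cndp2, a dipeptidase, both at a distance of 0.09. Ctsa was nearest to Lztfl1 at 0.09 and Atp10d at 0.13, and Ctss to Mrpl52 and Slc39a14 at 0.13 each. Ctsc was nearest to the cytokine Tnf at 0.20 and to Pf4 at 0.21, and Ctsl to Wfdc18 at 0.22 and Rgs10 at 0.23. The member nearest to Ctsb was Ctsz at 0.20, that nearest to Ctsa was Ctsb at 0.32, and Ctsc and Ctss were nearest to each other at 0.32. Ctse had no near neighbour, with Trim34a at 0.34, Hal at 0.38 and the closest member, Ctsd, at 1.07. The 8 points are 4 pools on 2 arrays each, and Pf4, Slc39a14, Wfdc18, Trim34a and Hal lay under background in at least 1 pool.

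Other genes of the cathepsin pathway were read in lists, here and below. Their counts are to be set beside the shares of all genes tested. Those were 11.6% higher and 4.81% lower in wild-type tumor against marrow, and 21.1% and 15.4% in HDC-KO. Between the tumor pools 15.5% were higher and 10.5% lower. Of 12 tested partners and activators of cathepsins, 7 were higher in wild-type tumor than marrow and 10 in HDC-KO, with 0 lower, and medians of 1.35 and 2.52. Lgmn, the asparaginyl endopeptidase that processes several cathepsins, was at least 43.5-fold and at least 62.0-fold higher. Cd74, the invariant chain that Ctss cuts, was 24.7-fold and 89.6-fold higher, and H2-DMa, which helps load peptides onto MHC class II, was 8.60-fold and 20.4-fold higher. Between the tumor pools 5 of the 12 were higher in the pool labelled HDC-KO, including Cd74 at 4.08-fold. Genes under background in marrow entered these tests through the tumor pools alone.

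Of 6 tested inhibitors, a list of cystatins, stefins and serpins, 0 were higher and 1 lower in wild-type tumor, and 2 were higher and 2 lower in the HDC-KO comparison. Among the higher genes was Serpinb6a, a serpin, at 2.45-fold. Cst7, cystatin F, which inhibits Ctsc, was 8.04-fold lower in wild-type tumor than in marrow and at least 7.46-fold lower in HDC-KO. Stfa3, a stefin, was 2.27-fold lower in the second of these. Of the other cathepsins, 2 of 12 were above background. Ctsg, the granule serine protease that Ctsc activates, was 9.68-fold lower in wild-type tumor than marrow and at least 94.6-fold lower in HDC-KO, and Ctso, a cysteine protease, was 3.74-fold higher in HDC-KO.

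Of 6 tested granule proteases that Ctsc activates, 4 were lower and 1 higher in wild-type tumor against marrow, and 4 were lower and 2 higher in HDC-KO. Elane, neutrophil elastase, was 13.4-fold lower and at least 26.0-fold lower. Gzma, a granzyme of cytotoxic lymphocytes, was at least 5.02-fold and at least 56.8-fold higher, and is also on the T and NK cell marker list, of which 4 of 6 were higher and 2 lower in the HDC-KO comparison, with Cd3d 4.60-fold lower. The summed level of that list was 12.56 to 12.58 in HDC-KO marrow and 11.73 to 11.76 in the tumor pool labelled HDC-KO, and its part in the granule protease values was not tested. Gzma was under background in both marrow pools, at means of 3.36 and 4.38, and so entered the test through the tumor pools alone. Mcpt8, among the lower genes, was under background in both tumor pools, at 3.16 and 4.04, and entered through the marrow pools alone. The median of the granule protease list was -2.48 in wild-type and -3.72 in HDC-KO. Granulocyte markers were lower for 1 of 12 in wild-type, Mpo, and for 4 of 12 in HDC-KO.

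**Figure D4:**
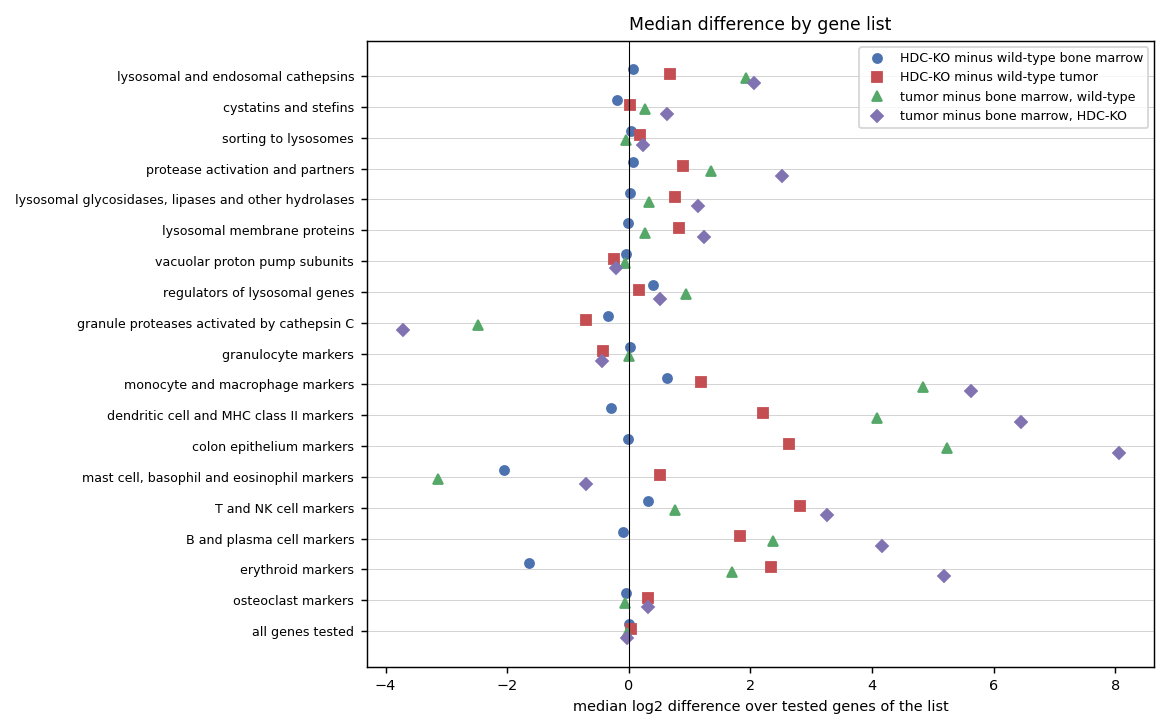
Median log2 difference (horizontal axis) over the tested genes of each gene list (vertical axis) in 4 comparisons, with all 8174 tested genes at the bottom. The cathepsin medians are 1.92 and 2.05 between tumor and marrow and those of the proton pump subunits -0.06 and -0.21; lists with genes under log2 5 in marrow, such as the macrophage, MHC class II and epithelial markers, rest in part on values at background.

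Further lysosomal genes were read by class, to be set beside the shares of all genes given above. Of 21 tested hydrolases that are not cathepsins, 4 were higher in wild-type tumor than marrow and 11 higher and 1 lower in HDC-KO, including Acp5, an acid phosphatase of macrophages and osteoclasts, at least 14.3-fold and at least 30.7-fold. Acp5 was under background in both marrow pools and so entered the test through the tumor pools alone. Galns, a sulfatase, was the 1 that was lower, 7.37-fold. Between the tumor pools 8 hydrolases were higher, among them the acid lipase Lipa at 3.00-fold, and 1 was lower. Of 13 lysosomal membrane proteins 2 were higher in wild-type tumor and 7 in HDC-KO, including Cd68 at 4.78-fold and 11.2-fold. None of the 14 subunits of the vacuolar proton pump, which acidifies lysosomes, was called in limma between tumor and marrow in either genotype, with medians of -0.06 and -0.21, and Atp6v0a1 was 2.04-fold lower in the pool labelled HDC-KO than in wild-type tumor. At an unadjusted p under 0.05 in limma, 8 and 10 of the subunits differed between tumor and marrow.

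Of 12 sorting genes 0 were called in wild-type (6 at an unadjusted p under 0.05 in limma) and 2 were higher and 2 lower in the HDC-KO comparison of tumor with marrow, whose tumor side is labelled so. Igf2r, the large mannose 6-phosphate receptor, was 9.57-fold lower there and 7.24-fold lower in the pool labelled HDC-KO than in wild-type tumor, and Scarb2, which carries glucocerebrosidase, was 3.33-fold higher in the first of these. Of 6 regulators 3 were higher in wild-type tumor than marrow: Irf8 at 3.49-fold, Mitf at 2.92-fold and Tfe3 at 2.05-fold, the latter 2 being relatives of TFEB. In the HDC-KO comparison 2 of 6 were higher, Irf8 at 7.18-fold and Mitf at 3.21-fold, and Tfe3 was not called. None was lower in either, and the list medians were 0.94 in wild-type and 0.51 in HDC-KO. In marrow, HDC-KO against wild-type, the lists of sorting genes, inhibitors, proton pump subunits and regulators had 0 calls in limma, and those of partners, hydrolases and membrane proteins 1 lower gene each, Prcp, Gla and Npc1. At an unadjusted p under 0.05 the first 4 lists had 3 of 12, 5 of 6, 6 of 14 and 4 of 6 genes.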

How the data were processed

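RNA of 4 groups was read on 2 technical Affymetrix arrays each, 8 in all. Each group is called a pool, although the labels state pooling only for tumor. The deposited values are log2 expression after GCRMA (background correction, normalization and summary of probes), named in the submitters' processing notes. No version of it was given. Single-gene probe sets numbered 34958 of 45101, by the platform annotation, and the probe set with the highest mean stood for each gene. The test took genes that reached log2 5, the assumed background, on 2 arrays or more, which left 8174 of 18194. Differences were fitted over all 8 arrays with limma 3.58.1 in R 4.3.3 (lmFit, eBayes; 4 residual and 2.14 prior degrees of freedom), with Benjamini-Hochberg adjustment over all genes. A second fit kept every probe set. A call needed an adjusted p under 0.05 and a log2 difference of 1. Where 1 pool mean was under 5, the fold was computed against 5 and is written "at least". On data simulated for HDC-KO against wild-type tumor with 8174 genes, 98 of 100 genes changed by log2 1.5 were called, 98 of 100 changed by log2 2, and 0 unchanged genes. The simulated noise was independent, with the spread of technical arrays, so these counts carry nothing about the spread between mice. Far fewer genes were changed there than the 2122 called in the data. The number of arrays limits the precision, and correlations within a pool were 0.996 to 0.998.

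The text names all members, up to the 3 largest calls of each list and comparison, and the 2 genes of likest profile for members whose pool means spanned log2 2. The members and lists were chosen with earlier results of these data known. Promoters came from RefSeq (GRCm38.p6), where 7 of 10 members matched. Alternatives were quantile normalization, median centring, other filters, other choices of probe set, other variance models, averaged arrays, a replicate block and leaving out each array.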

Additional observations from a re-analysis of the deposited data

Results flagged for a closer look

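The genotype difference (HDC-KO minus wild-type) in tumor less that in marrow was 1.56 for Ctsl on the log2 scale, by the tested difference of effects. Ctsl differed by -0.81 between the marrow pools and by 0.75 between the tumor pools, the latter against the pool labelled HDC-KO, whose Hdc level goes against its label.

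For Ctse the same quantity was -3.50, from 2.83 in marrow and -0.67 in tumor on its leading probe set. On 1427797_s_at it was not called. There the HDC-KO marrow pool was 1.73-fold lower and the tumor pool labelled HDC-KO, which was under background, at least 1.25-fold lower.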

How the results depend on the processing

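Of the alternatives for member differences, 826 kept their direction and side of the threshold, 9 gained a call, 4 lost one and 7 turned direction. All 7 that turned were differences that were not called. Members called between the tumor pools numbered 1, against 2 with the mean of a gene's probe sets (Ctsb at 1.39 and Ctsz at 1.02, with Ctsa at 0.54 and not called) and 0 with median centring. Ctsd between the tumor pools turned to 0.015 with quantile normalization and spanned -0.048 to 0.015 when single arrays were left out. Between the marrow pools, Ctsh turned to 0.023 and Ctsz to 0.017 with median centring, and they spanned -0.092 to 0.029 and -0.079 to 0.0051 when single arrays were left out. Member probe sets called between the marrow pools numbered 1 to 2, the second being 1437939_s_at of Ctsc at 1.09 without wild-type marrow array 1. With the mean of probe sets Ctse in wild-type tumor against marrow was 0.72 and not called. With the replicate block the members called were 1, 1, 6, 6 and 2, as without it. Differences of the 2 arrays correlated at -0.015 to 0.058 between pools, so the numbers give no pairing, and the block changed no member's call. Using only the groups compared gave no value for the difference of effects, which needs all 4.

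Limits: each group is 1 pool, so no spread between mice was measured, tissue is tied to age and treatment, and values under log2 5 carry no order.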
